A study of Mus musculus with 9 samples.

Results

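The genes described here are 8 receptors for chemokines and related chemoattractants, Ccr1, Ccr2, Ccr3, Ccr7, Ccrl2, Cxcr2, Cxcr4 and Cmklr1. They were chosen by name as members of that family with earlier results of these data known, and all 8 were found among the 21212 rows of the expression table. The cells were primary microglia, the resident macrophages of the brain, prepared by Percoll gradient from wild-type CD-1 mouse pups aged 0 to 1 day whose litters were pooled. All cultures grew for 5 to 7 days with M-CSF and GM-CSF, each at 10 ng/ml, and stood in serum-free medium overnight. They then received LPS (100 ng/ml), a bacterial cell wall product, to skew them to the M1 state, IL-4 (20 ng/ml), a T helper cytokine, to skew them to the M2a state, or PBS as the unstimulated control, each for 4 h. RNA from 3 samples per condition was run on 9 Affymetrix exon arrays, and no source says whether the 3 samples came from separate cultures. What the p-values take into account is thus how far these arrays spread, and that spread may be technical. Because growth factors were present in every condition, the PBS cells are cultured and growth factor-treated cells, not microglia fresh from the brain.

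Values are log2 expression levels, on which a difference of 1 is a 2-fold change. A gene is said to have risen or fallen where the limma model over all 9 arrays gave an adjusted p under 0.05 (Benjamini-Hochberg over all 21212 rows), and SE and confidence intervals (CI, 95%) come from the same model. Each array level belongs to the probes of its own gene, so levels are compared between arrays and not between genes. Of 13 microglia markers, 12 were measured, and their mean level lay between 7.98 and 8.35 on the LPS arrays, 8.67 and 8.75 on the IL-4 arrays and 8.44 and 9.31 on the PBS arrays. With LPS 8 of the 12 fell, Csf1r (−0.76) and Trem2 (−0.81) among them, where 22.4% of all rows fell. With IL-4 only Trem2 fell (−0.47), where 2.05% of all rows fell. In such bulk RNA, fewer cells of a type and less RNA per cell cannot be told apart. Replicate 3 of LPS and replicate 3 of PBS stood apart from the other arrays of their conditions. The mean of 17 motile cilia genes was 6.84, 6.69 and 8.46 on LPS replicates 1 to 3, 8.11, 8.39 and 8.27 on the IL-4 replicates and 6.99, 7.04 and 8.78 on the PBS replicates. The mean of 10 oligodendrocyte lineage genes was 7.4, 7.4 and 8.4 on the LPS replicates and 7.6, 7.6 and 8.6 on the PBS replicates. That of 9 astrocyte genes was 10.3, 10.3 and 10.7 with LPS and 10.4, 10.3 and 10.9 with PBS. For each of these lists, the IL-4 arrays all lay above replicates 1 and 2 and below replicate 3 of LPS and of PBS. Comparisons with IL-4 thus also set arrays with unlike levels of these genes against each other, and the part of this in the IL-4 results was not tested.

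Chemokine receptors are G protein-coupled receptors that read gradients of small secreted proteins and steer the migration of leukocytes. Ccr1, Ccr2 and Ccr3 bind inflammatory CC chemokines, Ccr7 guides dendritic cells and lymphocytes to lymph nodes, Cxcr2 draws neutrophils to CXC chemokines, and Cxcr4 binds Cxcl12. Cmklr1 signals in response to chemerin, the product of Rarres2, while Ccrl2 binds chemerin without the usual signaling and presents it to other cells. Macrophages change their set of such receptors when they are activated, and microglia use receptors of this family in development and injury.

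Both stimuli moved the receptors, and neither moved them all one way. With LPS, Ccrl2 and Ccr7 rose and Cxcr4, Ccr1, Ccr2 and Cxcr2 fell, whereas with IL-4 Cxcr2 rose and Ccrl2 and Cxcr4 fell. Ccr3 and Cmklr1 passed the test in neither comparison. For LPS against PBS 6 of 8 receptors passed, 2 higher and 4 lower, where 37.8% of all rows passed (15.4% higher and 22.4% lower). For IL-4 against PBS 3 of 8 passed, 1 higher and 2 lower, where 5.4% of all rows passed (3.35% higher and 2.05% lower). Both comparisons use the same PBS arrays. LPS against IL-4 had 4 of 8 past the test, where 46.9% of all rows passed (21% higher and 25.9% lower). Ccrl2 and Ccr7 were higher and Cxcr2 and Cxcr4 lower. These differences use no PBS array, but their SE and p-values rest on the spread shared by all 9 arrays. The arrays of the 2 conditions did not overlap for 5 of 8 receptors in LPS against PBS, 1 higher and 4 lower, where this held for 45.7% of all rows (20.4% higher and 25.4% lower). In IL-4 against PBS it held for 6 of 8, 2 higher and 4 lower, and for 29% of all rows (14.7% higher and 14.3% lower). In LPS against IL-4 it held for 5 of 8, 2 higher and 3 lower, and for 59.9% of all rows (28.4% higher and 31.5% lower). The median log2 fold change of the 8 receptors was −0.28 for LPS against PBS, −0.20 for IL-4 against PBS and −0.19 for LPS against IL-4, beside medians of 0.005, −0.017 and 0.029 over all rows.

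**Figure D1:**
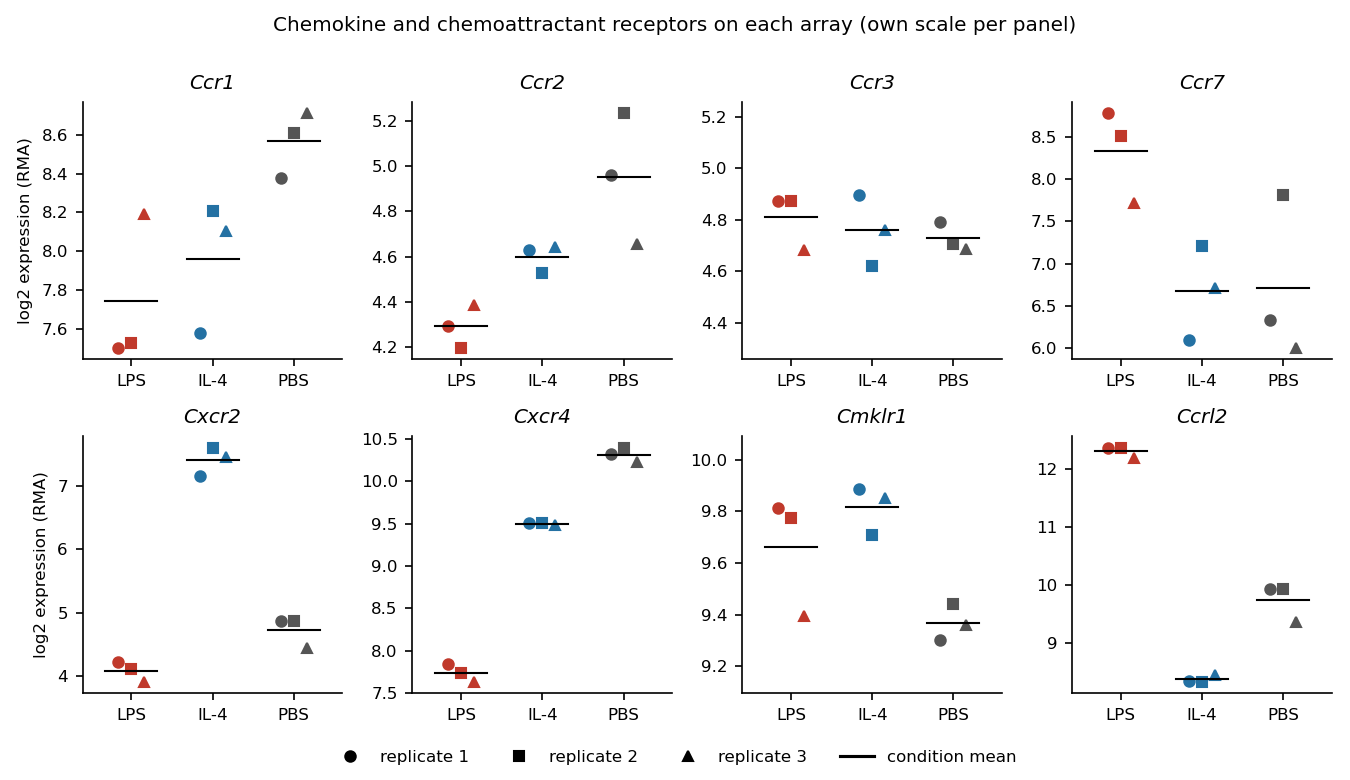
Log2 expression level of each receptor on the 9 arrays, with LPS and IL-4 left of PBS, 1 panel and 1 scale per gene; points are arrays, marker shapes give the replicate number and bars the condition mean. Cxcr4 has 3 separate levels, Ccrl2 is highest with LPS and lowest with IL-4, and Cxcr2 is above 7 on the IL-4 arrays alone.

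**Figure D2:**
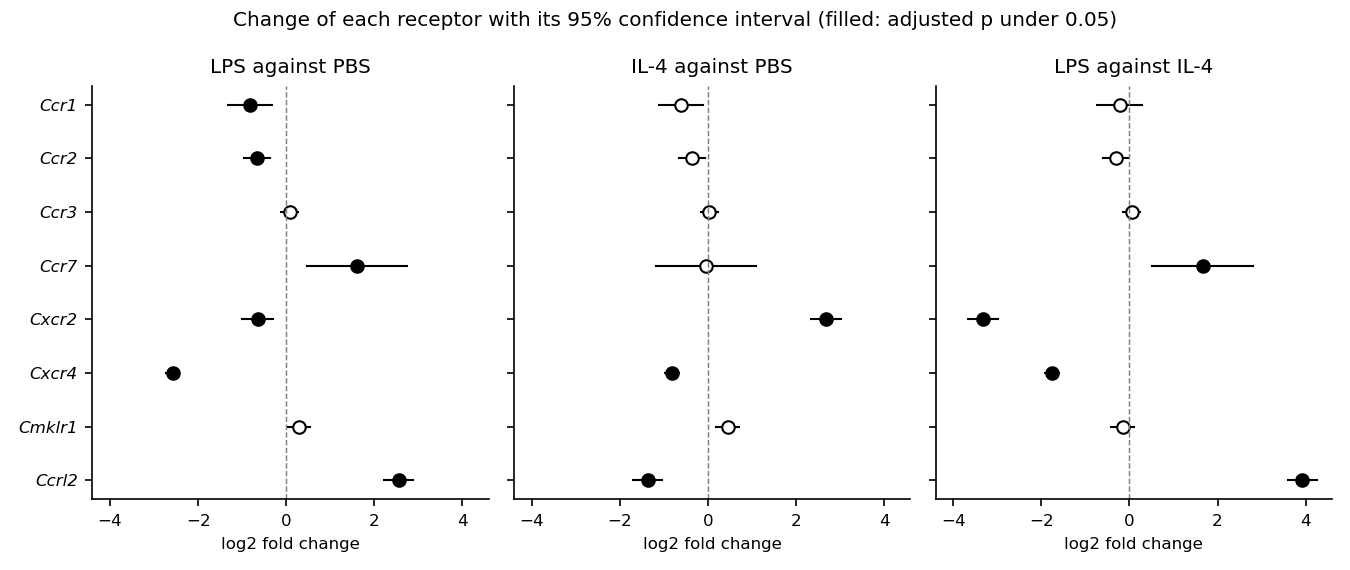
Log2 fold change of the 8 receptors in the 3 comparisons, with bars for the 95% CI and filled points for an adjusted p under 0.05. Ccrl2 and Cxcr2 lie on opposite sides of 0 in the comparisons of LPS and of IL-4 with PBS, which share the PBS arrays.

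Ccrl2, the chemerin-binding receptor, had the largest rise of the 8 with LPS. Its level was 12.36, 12.36 and 12.19 on the LPS arrays, 8.34, 8.34 and 8.45 on the IL-4 arrays and 9.93, 9.94 and 9.37 on the PBS arrays. The 3 conditions did not overlap: every LPS array was higher and every IL-4 array lower than every PBS array. Ccrl2 was 5.88-fold higher with LPS than with PBS (log2 fold change 2.56 ± 0.14 SE, adjusted p = 2.52e-06). With IL-4 it was 2.58-fold lower than with PBS (−1.37 ± 0.14, adjusted p = 0.00137). That call was lost with the t-test of the methods when the same adjustment was added to it (adjusted p = 0.0553). LPS exceeded IL-4 by 15.2-fold (3.92 ± 0.14, adjusted p = 1.94e-07). PBS replicate 3, high in cilia genes as the IL-4 arrays were, lay 0.56 below the mean of the other PBS arrays, and without it the changes were 2.37 with LPS and −1.56 with IL-4.

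Ccrl2 lies on chromosome 9 at chr9:111054834-111057518 (minus strand, GRCm38.p6). RefSeq lists 3 start sites for it, and the window of the first, from 250 bases before the start to 50 bases from it, is shown because it alone among the 9 windows found for these receptors holds 2 matches to the κB motif. The motif was searched on both strands as GGGA and CC with any 4 bases between them, and its matches are in capitals. The window is chr9:111057469-111057768, read 5′ to 3′ on the minus strand:
Ccrl2, start site 1: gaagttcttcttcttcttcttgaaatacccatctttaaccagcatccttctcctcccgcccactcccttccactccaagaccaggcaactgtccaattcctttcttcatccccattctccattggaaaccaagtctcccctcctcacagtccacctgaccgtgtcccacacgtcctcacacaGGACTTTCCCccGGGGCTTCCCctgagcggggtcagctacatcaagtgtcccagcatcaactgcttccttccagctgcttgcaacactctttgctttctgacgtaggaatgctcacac
The matches are GGACTTTCCC from −68 to −59 and GGGGCTTCCC from −56 to −47, counted from the start site. They overlap neither each other nor a match to another motif. The windows of the other start sites, which overlap this one, hold none. At least 1 such match occurs in 20.7% of all 32851 windows of this length, and the share with 2 was not counted. A match is a description of the letters, not a site.

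Cxcr2, the receptor for neutrophil-attracting CXC chemokines, rose with IL-4 and fell with LPS. It stood at 7.16, 7.60 and 7.45 on the IL-4 arrays and at 4.87, 4.87 and 4.45 on the PBS arrays. The lowest IL-4 array was more than 2 log2 units above the highest PBS array. The change was 6.41-fold (2.68 ± 0.15, adjusted p = 6.4e-05), and it lay between 2.54 and 2.80 when single arrays were left out. On the LPS arrays Cxcr2 stood at 4.22, 4.11 and 3.91, each below every PBS array. LPS lowered it by 0.65 ± 0.15 on the log2 scale (adjusted p = 0.00912). That call was lost with the methods' t-test when the same adjustment was added to it (adjusted p = 0.0632). Against IL-4, LPS was 10.0-fold lower (−3.33 ± 0.15, adjusted p = 7.06e-07). By its mean over the 9 arrays Cxcr2 was among the 7071 dimmest rows, as Ccr2 and Ccr3 were. The deposited table has no detection calls, so whether levels of 4 to 5 stood above background was not tested.

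Neutrophils are the best known source of Cxcr2. All 11 neutrophil markers of the list were measured. With IL-4, where 2.05% of all rows fell, none rose and Mpo, a granule enzyme, fell (−0.22). The mean level of the 11 markers lay between 5.77 and 5.87 on the IL-4 arrays and between 5.77 and 6.17 on the PBS arrays, so the IL-4 range lay within the PBS range. With LPS, where Cxcr2 fell, 3 neutrophil markers rose, S100a8 (0.94), Camp (0.21) and Ltf (0.15), beside 15.4% of all rows. The neutrophil mean lay between 6.01 and 6.34 on the LPS arrays. Fibroblast and meningeal markers did move with IL-4: 5 of 9 rose, Igf2 (1.64), Dcn (1.21) and Lum (1.14) among them, where 3.35% of all rows rose. The mean of these 9 markers lay between 9.15 and 9.18 on the IL-4 arrays and between 8.49 and 8.58 on the PBS arrays. The part of these cells in the IL-4 results was not tested.

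Cxcr2 lies on chromosome 1 at chr1:74153994-74161246 (plus strand, GRCm38.p6). Its start site window is shown because this receptor had the largest rise with IL-4, a cytokine that acts through STAT6. It is chr1:74153744-74154043 on the plus strand, and all letters are in lower case because none of the 4 motifs searched had a match:
Cxcr2: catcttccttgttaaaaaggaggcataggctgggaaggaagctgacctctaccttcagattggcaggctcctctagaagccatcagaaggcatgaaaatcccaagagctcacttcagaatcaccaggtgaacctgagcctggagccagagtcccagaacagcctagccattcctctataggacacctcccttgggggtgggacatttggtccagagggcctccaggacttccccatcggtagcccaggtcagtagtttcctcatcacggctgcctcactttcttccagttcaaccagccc
Besides κB, these were TTC and GAA with any 4 bases between them for STAT6, the same with any 3 bases for STAT factors in general (GAS) and TGANTCA for AP-1. The palindromic STAT6, GAS and AP-1 motifs occur in 6.95%, 8.3% and 7.81% of all windows. The 9 windows belong to 7 of the 8 receptors, and no window was found for Ccr7. None of the 9 held a STAT6 or GAS match, which says only that these letters are not in these windows.

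Cxcr4, the Cxcl12 receptor that holds leukocytes in place and guides neural precursors, had the largest fall of the 8 with LPS. Its level was 7.84, 7.74 and 7.63 on the LPS arrays, 9.51, 9.51 and 9.49 on the IL-4 arrays and 10.32, 10.40 and 10.23 on the PBS arrays. The order was LPS below IL-4 below PBS, with no overlap anywhere and an SD of at most 0.11 within a condition. Cxcr4 was 5.97-fold lower with LPS than with PBS (−2.58 ± 0.07, adjusted p = 3.19e-08). It was 1.76-fold lower with IL-4 than with PBS (−0.81 ± 0.07, adjusted p = 0.000355). LPS was 3.39-fold below IL-4 (−1.76 ± 0.07, adjusted p = 2.45e-07), a direct test of the difference between the stimuli. All 3 calls held under every alternative, the methods' t-test included, and the change with LPS lay between −2.63 and −2.52 when single arrays were left out. Replicate 3 was 0.16 and 0.13 below the mean of the other arrays of its condition with LPS and with PBS. Cxcr4 is on the minus strand at chr1:128588199-128592299, and its window held no match to the motifs.

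Ccr7, the lymph node homing receptor of mature dendritic cells and T cells, rose with LPS but varied among the arrays of each condition. It stood at 8.78, 8.51 and 7.71 on the LPS arrays, 6.09, 7.21 and 6.71 on the IL-4 arrays and 6.33, 7.81 and 6.01 on the PBS arrays. LPS and PBS overlapped, because PBS replicate 2 lay above LPS replicate 3. The change with LPS was 3.07-fold (1.62 ± 0.50, CI 0.48 to 2.75, adjusted p = 0.0319). With IL-4 it was −0.04 (CI −1.18 to 1.09, adjusted p = 0.970), an interval wide enough to hold a change of 1 either way. Against IL-4, LPS was 3.16-fold higher (1.66 ± 0.50, adjusted p = 0.0247) and the groups did not overlap.

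The Ccr7 call against PBS depended on single arrays. It was lost without LPS replicate 1 (1.39, adjusted p = 0.11), LPS replicate 2 (1.53, 0.0876), PBS replicate 1 (1.42, 0.0975), PBS replicate 3 (1.26, 0.0935) or IL-4 replicate 3 (1.62, 0.052), whose array changes only the shared spread. It was also lost with the t-test (adjusted p = 0.162), with the 6 arrays of the comparison alone (0.0621) and with array weights (1.20, 0.0647). Without PBS replicate 2 the change was 2.16 (adjusted p = 0.00408). The call against IL-4 was lost without LPS replicate 1 (adjusted p = 0.086), LPS replicate 2 (0.0704), IL-4 replicate 1 (0.0844) or IL-4 replicate 3 (0.0642) and with the t-test (0.0575). Replicate 3 lay 0.93 below the other LPS arrays and 1.06 below the other PBS arrays, on the arrays that were high in cilia genes.

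PBS replicate 2 set Ccr7 apart together with a small group of genes. Over all 21212 rows, 6 genes were at least 1 log2 unit higher on PBS replicate 2 than on both other PBS arrays, and Ccr7 was the third of them. The others were the chemokines Ccl22 (1.89 above the next PBS array) and Ccl17 (1.86), ligands of Ccr4, the MHC class II chains H2-Aa (1.37) and H2-Ab1 (1.06), and Il2ra, the IL-2 receptor chain (1.08). They were found by this search after their values had been seen. By the same measure the count was 340 on PBS replicate 3, 253 on LPS replicate 3 and between 0 and 2 on each of the other arrays. Ccl22 stood at 9.94, 10.06 and 10.31 on the LPS arrays, 7.39, 7.56 and 7.58 on the IL-4 arrays and 6.23, 8.11 and 5.85 on the PBS arrays, so only its PBS arrays spread widely. It rose with LPS by 3.37 ± 0.49 (adjusted p = 0.000729). Ccl17 stood at 11.03, 10.95 and 9.15 with LPS and 7.58, 9.44 and 6.40 with PBS, and like Ccr7 it overlapped. It rose with LPS by 2.57 (adjusted p = 0.0315). The LPS differences of H2-Aa (0.215, adjusted p = 0.801), H2-Ab1 (0.527, 0.411) and Il2ra (0.907, 0.147) did not pass.

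**Figure D3:**
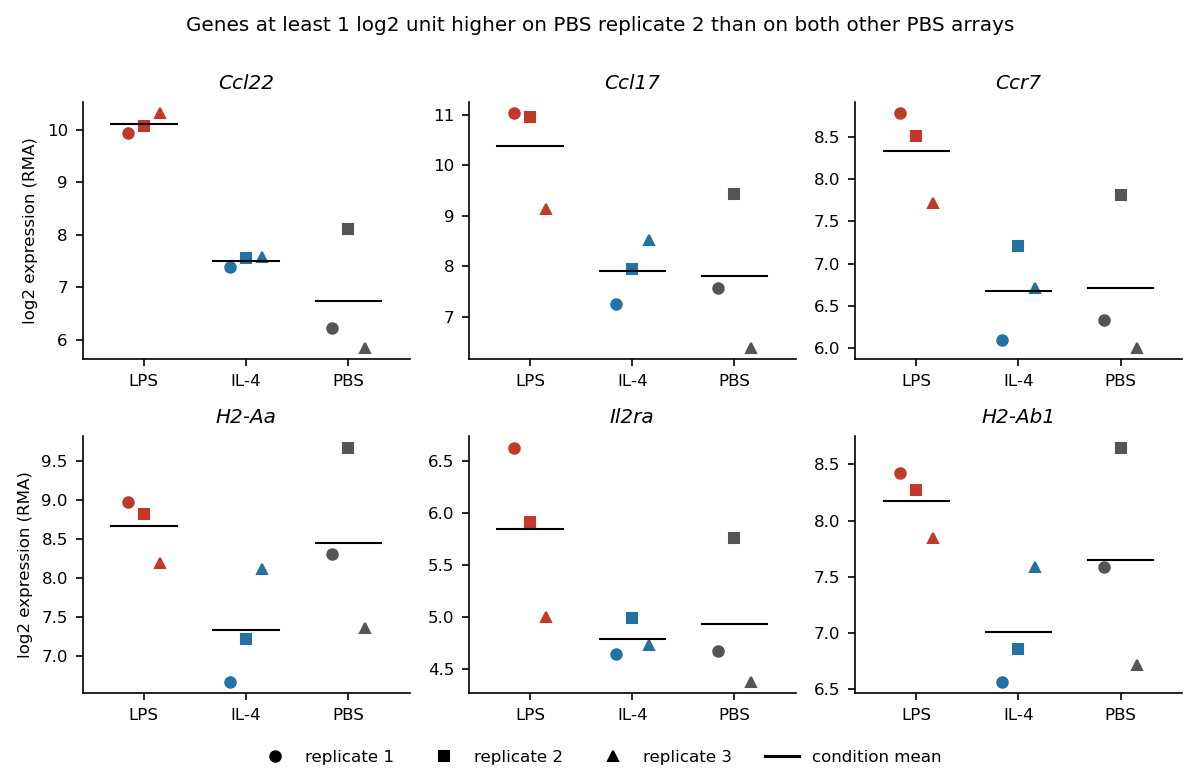
Log2 level on the 9 arrays of the 6 genes that were at least 1 unit higher on PBS replicate 2 than on both other PBS arrays, 1 panel per gene, with LPS and IL-4 left of PBS. Ccr7 and Ccl17 share a low LPS replicate 3, and Ccl22 does not.

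Dendritic cells that mature express Ccr7, Ccl22 and MHC class II. The MHC class II chains H2-Aa and H2-Ab1 passed with neither stimulus. Of 10 dendritic cell markers, all measured, Ccl22 and the actin-bundling gene Fscn1 (0.90) rose with LPS, where 15.4% of all rows rose. The other 8 did not pass. With IL-4, where 3.35% of all rows rose, Itgax (0.72) and Fscn1 (0.41) rose and 8 did not pass. The mean level of the 10 markers lay between 7.04 and 7.09 on the LPS arrays, 6.73 and 6.80 on the IL-4 arrays and 6.43 and 6.73 on the PBS arrays. The LPS range was above both others. However, Ccl22 itself is in the list, with the largest change of the 10 with LPS (3.37). The order of these means therefore leans on Ccl22 and is not a result about the other markers. The part of such cells in the Ccr7 result was not tested.

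Ccr1, Ccr2 and Ccr3 are neighbors. They lie with Ccr1l1 in 147.0 kb at chr9:123962126-124109140 that hold 4 protein-coding genes, and Ccrl2 is 12.9 Mb away on the same chromosome. Ccr1 and Ccr2 fell with LPS and Ccr3 did not pass. Ccr1l1 had log2 fold changes of 0.09 with LPS (adjusted p = 0.387) and −0.22 with IL-4 (adjusted p = 0.154).

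Ccr1, a receptor for Ccl3, Ccl5 and related chemokines on monocytes and macrophages, stood at 7.50, 7.53 and 8.19 on the LPS arrays, 7.58, 8.20 and 8.10 on the IL-4 arrays and 8.38, 8.61 and 8.71 on the PBS arrays. All 6 stimulated arrays were below all 3 PBS arrays, while LPS and IL-4 overlapped. LPS lowered Ccr1 by 0.83 ± 0.22 on the log2 scale (CI −1.33 to −0.32, adjusted p = 0.0174). The call was lost without LPS replicate 1 (−0.71, adjusted p = 0.0667), LPS replicate 2 (−0.72, 0.0617), PBS replicate 2 (−0.80, 0.0525) or PBS replicate 3 (−0.75, 0.0501) and with the t-test (adjusted p = 0.0905). LPS replicate 3 lay 0.68 above the other LPS arrays, and without it the change was −1.05 (adjusted p = 0.00272). With IL-4 the difference was −0.60 ± 0.22 (CI −1.11 to −0.10) and missed the threshold (adjusted p = 0.169), although array weights gave −0.50 (adjusted p = 0.0165). LPS and IL-4 differed by −0.22 (CI −0.73 to 0.28, adjusted p = 0.423), and array weights gave −0.48, which passed (adjusted p = 0.0287). The Ccr1 window held 1 κB match, at −74 to −65.

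Ccr2, the receptor by which monocytes leave the bone marrow toward Ccl2, stood at 4.29, 4.20 and 4.39 on the LPS arrays, 4.63, 4.53 and 4.64 on the IL-4 arrays and 4.96, 5.23 and 4.66 on the PBS arrays. The order was LPS below IL-4 below PBS without overlap, but IL-4 and PBS nearly met at 4.64 and 4.66. Ccr2 fell with LPS by 0.66 ± 0.13 (adjusted p = 0.00388), a call lost with the t-test (adjusted p = 0.0689). With IL-4 the difference was −0.35 ± 0.13 (CI −0.65 to −0.05, adjusted p = 0.177). It passed without PBS replicate 3 (−0.49, adjusted p = 0.0197), the lowest PBS array, and with array weights (−0.54, adjusted p = 0.0014), and without replicate 3 of both LPS and PBS (adjusted p = 0.00525). LPS was 0.31 below IL-4, which missed the threshold (CI −0.60 to −0.01, adjusted p = 0.0813). It passed with the t-test (adjusted p = 0.0317), the 6 arrays alone (0.0114), array weights (0.0183) and quantile normalization (0.0219) and without PBS replicate 2 (0.0298) or PBS replicate 3 (0.0185), and without replicate 3 of both LPS and PBS (−0.35, 0.00961), while subtraction of array medians gave −0.15 (0.338). Of 7 monocyte markers 5 were measured. With LPS, where 15.4% of all rows rose, Vcan (2.58) and Plac8 (0.66) rose and none fell. Their mean level lay between 8.25 and 8.36 on the LPS arrays, 7.55 and 7.57 on the IL-4 arrays and 7.40 and 7.98 on the PBS arrays, and their part in the Ccr2 result was not tested.

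Ccr3, the eotaxin receptor of eosinophils, stood at 4.87, 4.87 and 4.68 on the LPS arrays, 4.90, 4.62 and 4.76 on the IL-4 arrays and 4.79, 4.71 and 4.69 on the PBS arrays. The 3 conditions overlapped, and all 9 values lay between 4.62 and 4.90. The difference from PBS was 0.08 with LPS (CI −0.11 to 0.27, adjusted p = 0.498) and 0.03 with IL-4 (CI −0.16 to 0.22, adjusted p = 0.865), and that between LPS and IL-4 was 0.05 (CI −0.14 to 0.24, adjusted p = 0.640). Its start site window is shown beside that of Ccrl2, because it too holds a κB match, GGAAATTCCC from −179 to −170, and the only AP-1 match of the 9 windows, TGAGTCA from −144 to −138, both in capitals. Ccr3 spans chr9:124017825-124031692, and this window lies inside that span, not before it. The window is chr9:124021721-124022020 on the plus strand:
Ccr3: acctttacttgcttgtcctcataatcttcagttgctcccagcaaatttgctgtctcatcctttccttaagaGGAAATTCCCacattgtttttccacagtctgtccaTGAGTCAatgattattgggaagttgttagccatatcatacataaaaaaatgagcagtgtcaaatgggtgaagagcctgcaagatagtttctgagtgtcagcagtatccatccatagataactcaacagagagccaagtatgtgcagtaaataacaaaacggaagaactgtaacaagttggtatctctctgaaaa

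Cmklr1, the signaling receptor for chemerin, stood at 9.82, 9.78 and 9.40 on the LPS arrays, 9.89, 9.71 and 9.85 on the IL-4 arrays and 9.30, 9.44 and 9.36 on the PBS arrays. The IL-4 arrays were all above the PBS arrays, whereas LPS replicate 3 lay below PBS replicate 2. The difference from PBS was 0.45 with IL-4 (CI 0.19 to 0.70, adjusted p = 0.0566) and 0.29 with LPS (CI 0.04 to 0.55, adjusted p = 0.0685). Neither passed, and LPS and IL-4 differed by −0.15 (CI −0.41 to 0.10, adjusted p = 0.275). Without LPS replicate 3 both passed, the LPS difference at 0.43 (adjusted p = 0.00213) and the IL-4 difference at 0.45 (adjusted p = 0.00646), whose arrays stayed the same and whose adjusted p changed with the shared spread. Array weights gave 0.36 with LPS (adjusted p = 0.00417) and 0.40 with IL-4 (adjusted p = 0.00172). Subtraction of array medians gave 0.41 with LPS (adjusted p = 0.0253). The IL-4 difference also passed, at 0.45 each, with quantile normalization (adjusted p = 0.0427), with the 6 arrays of the comparison alone (0.0182) and without the 7071 dimmest rows (0.0438). Without replicate 3 of both LPS and PBS the differences were 0.42 with LPS (adjusted p = 0.00289) and 0.45 with IL-4 (adjusted p = 0.00329). In all, 4 of 19 alternatives called the LPS difference and 6 of 19 the IL-4 difference.

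Of 22 listed ligands of these receptors 20 were measured. With LPS 14 rose, none fell and 6 did not pass, where 15.4% of all rows were higher. With IL-4 9 rose, none fell and 11 did not pass, where 3.35% of all rows were higher. The median change was 1.51 with LPS and 0.63 with IL-4. Where Cxcr2 fell with LPS, 4 of its 6 measured ligands rose, the neutrophil chemokines Cxcl2 (5.56), Cxcl3 (5.17), Cxcl1 (4.82) and Cxcl5 (2.06). With IL-4, which raised Cxcr2, Cxcl3 (1.46), Cxcl2 (1.32) and Cxcl5 (1.05) rose as well. The Ccr2 ligands Ccl2, Ccl7 and Ccl12 all rose with both stimuli, Ccl7 by 4.89 with LPS and 2.13 with IL-4 and Ccl12 by 4.83 and 1.66. For Ccr1, 4 of 5 ligands rose with LPS and 1 with IL-4, and Ccl6 passed in neither comparison (−0.26 with LPS and −0.12 with IL-4).

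Cxcl12, the ligand of Cxcr4, stood at 7.10, 7.18 and 6.89 on the LPS arrays, 6.55, 6.55 and 6.55 on the IL-4 arrays and 6.29, 6.31 and 5.98 on the PBS arrays. Its order was the reverse of that of Cxcr4, with no overlap. It rose with LPS by 0.86 ± 0.10 (adjusted p = 0.00024), and with IL-4 the difference was 0.35 (adjusted p = 0.0993). For Ccr3, 2 of 4 ligands rose with each stimulus, and Ccl24, an eotaxin, rose with IL-4 (1.03, adjusted p = 0.0317) and had a difference of 0.18 with LPS (adjusted p = 0.555). Rarres2, which encodes chemerin for Ccrl2 and Cmklr1, stood at 9.34, 9.18 and 10.33 with LPS, 8.84, 9.02 and 8.97 with IL-4 and 8.07, 8.32 and 9.58 with PBS. Its replicate 3 was high in both the LPS and the PBS condition, and it passed in neither comparison (adjusted p = 0.104 with LPS and 0.731 with IL-4). The listed ligands of Ccr7, Ccl19 and Ccl21a, had no row under their own symbols and so have no values here.

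**Figure D4:**
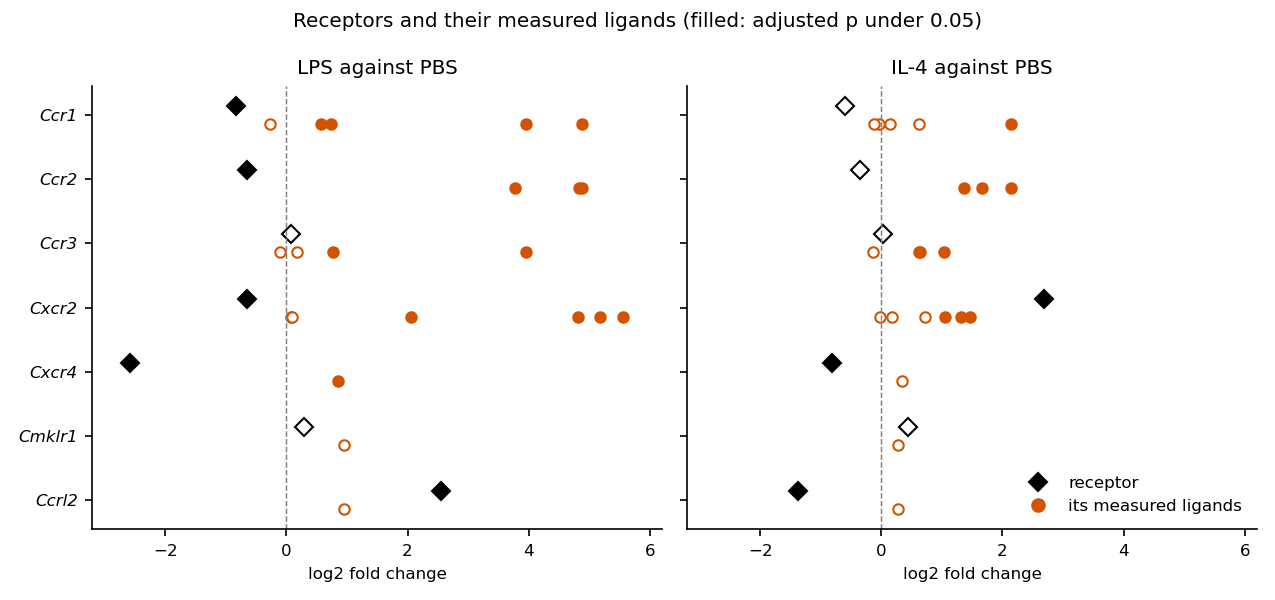
Log2 fold change of each receptor (diamonds, 1 row per receptor, Ccr7 left out) and of its measured ligands (circles), LPS against PBS and IL-4 against PBS, with filled points for an adjusted p under 0.05. The ligand points of Cxcr2 and Ccr2 lie right of 0 with both stimuli wherever they passed, while the receptor point of Cxcr2 is left of 0 with LPS and right of it with IL-4.

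Set beside the 8 receptors, 27 further receptors of the same kinds were measured from 3 lists. With LPS 7 of them rose and 3 fell, a share close to the 37.8% of all rows that passed, and with IL-4 1 rose and 2 fell, where 5.4% of all rows passed. Among the 8 receptors 2 rose and 4 fell with LPS, and 1 rose and 2 fell with IL-4. Of the 12 other chemokine receptors, Ccr9 (0.95) and Cxcr5 (0.46) rose and the fractalkine receptor Cx3cr1 (−1.80) fell with LPS, and none passed with IL-4. Of 5 atypical receptors, which bind chemokines without the usual G protein signaling, Ackr3 (0.53), the other receptor for Cxcl12, rose with LPS while Cxcr4 fell. Of 10 other chemoattractant receptors, the formyl peptide receptor Fpr2 (2.35) and S1pr1 (1.28) rose with LPS and Gpr183 (−1.71), an oxysterol receptor, and the complement receptor C5ar2 (−1.17) fell. With IL-4 Gpr183 rose (0.93), and C5ar2 (−0.49) and the platelet-activating factor receptor Ptafr (−0.48) fell. The complement receptor C3ar1 differed from PBS by −0.04 with LPS and −0.11 with IL-4 and did not pass.

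**Figure D5:**
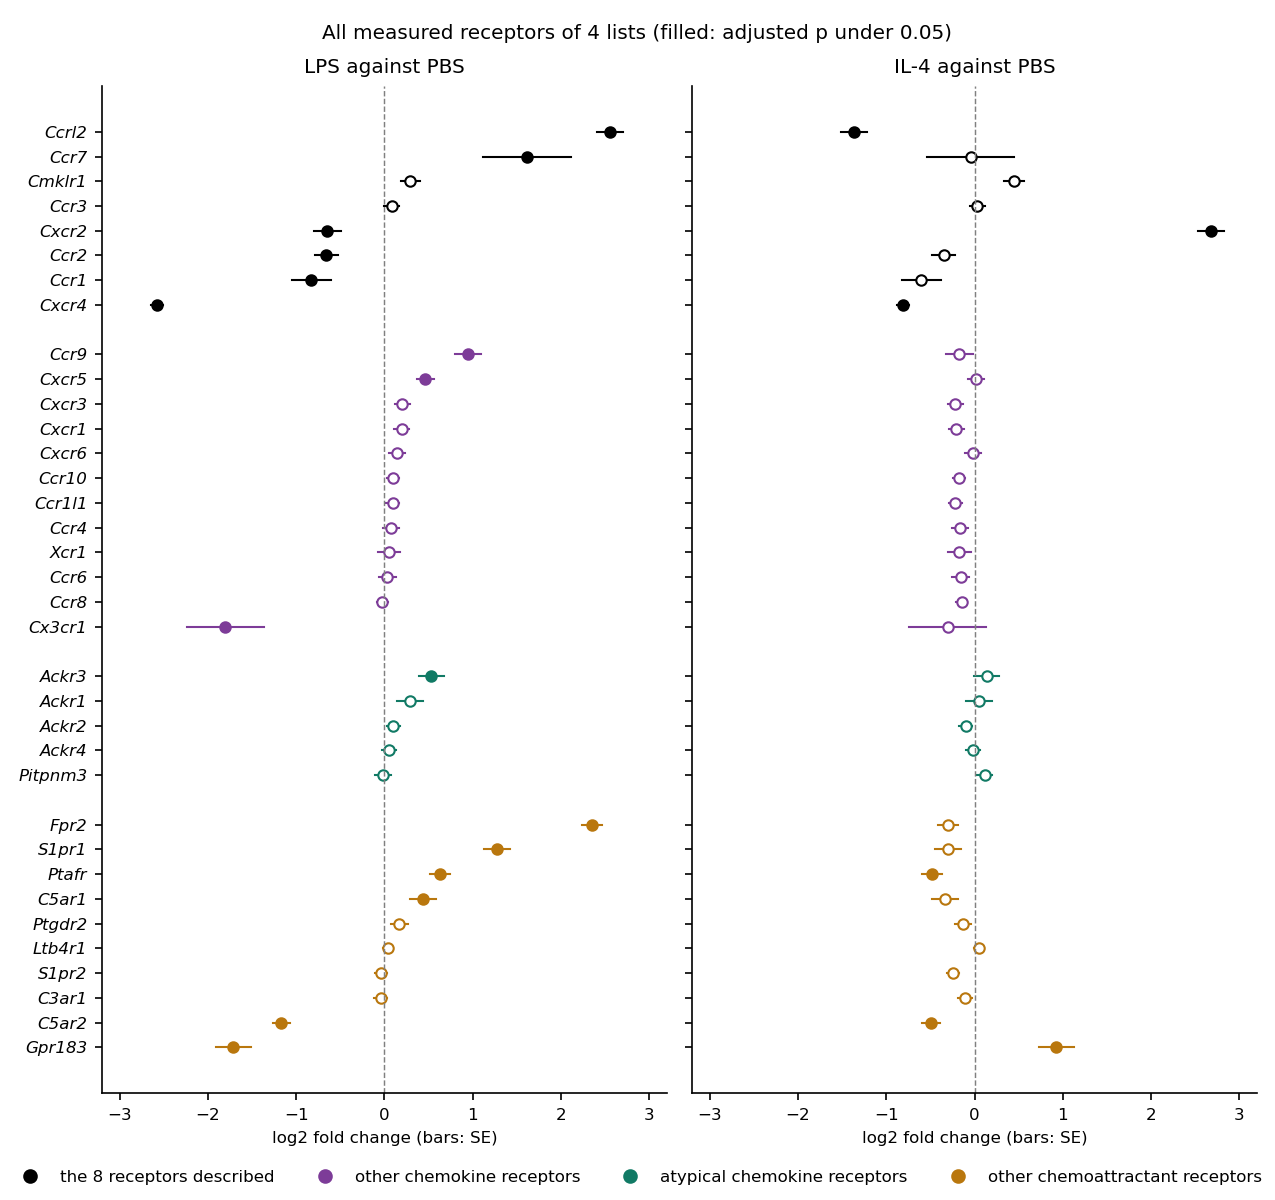
Log2 fold change with SE bars of the 8 receptors and of the 27 measured receptors of the other lists, LPS against PBS on the left and IL-4 against PBS on the right, with filled points for an adjusted p under 0.05. In the IL-4 panel Cxcr2 and Ccrl2 lie farthest from 0, and most other points lie within 0.5 of it.

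The genes whose pattern over the 9 arrays was most like each receptor were found from the root mean square (RMS) difference of row-centred log2 values, over all rows with 1 symbol. For Ccrl2 they were Phf11d (0.19), Oas3 (0.20) and Ifit1 (0.27), beside an RMS of 1.63 of Ccrl2 around its own mean. For Cxcr2 they were Mgl2 (0.30), Cdh1 (0.32) and Tmem26 (0.33), beside 1.45. For Cxcr4 they were Fbxo32 (0.05), Tmem86a (0.10) and Gcnt1 (0.17), beside 1.08. For Ccr7 the nearest genes were farther away, Il2ra (0.41), Abracl (0.48) and C1rb (0.48), beside 0.97. For Ccr1 they were Coro1a (0.22), Mbp (0.23) and Flvcr1 (0.24), beside 0.43. Ccr2 (0.30), Cmklr1 (0.22) and Ccr3 (0.09) varied little over the arrays, and their nearest genes, Vash2 (0.08), Rps6kc1 (0.07) and Cyp2c38 (0.04), share that low spread. These distances are descriptions over 9 arrays.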

How the data were processed

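The authors extracted log2 expression values by RMA with the affy package and deposited 21212 rows on that log2 scale, named by gene identifier (18786 with 1 symbol, 6 with several and 2420 with none in the platform annotation); versions are not given in the sources used here. Values lay between 2.05 and 13.06, with no detection calls. The number of arrays, 3 per condition, and their spread limit the precision. Conditions came from the labels. A mean per condition was fitted over all 9 arrays with limma 3.58.1 in R 4.3.3 with statmod 1.5.0 (6 residual and 2.38 prior degrees of freedom), two-sided, with Benjamini-Hochberg adjustment over all rows. The code was tested on simulated data. Receptors, gene lists, ligand pairs and motifs were chosen with earlier results of these data known. All 8 receptors are named; of each other list, up to 4 genes with the largest changes past the threshold and the 2 with the highest means that missed it could be named, and genes beyond that were named after their values had been seen. Same-numbered LPS and PBS arrays deviated together from their condition means (r = 0.578, 0.651 and 0.800). However, r was 0.542 between LPS replicate 1 and PBS replicate 2 and 0.605 between LPS replicate 2 and PBS replicate 1. These correlations thus do not show which of replicates 1 and 2 belong together. The fit as reported pairs no arrays, and a replicate block over all 9 arrays was run only as an alternative. For same-numbered IL-4 arrays r lay between −0.255 and 0.339. Start site windows come from RefSeq (GRCm38.p6), with 7 of 8 receptors matched and none found for Ccr7. Alternatives were 18 settings and 1 added later (7 arrays, with replicate 3 dropped from LPS and PBS). miRNA and PCR data were not used. Python 3.11.15 with pandas 2.3.3, numpy 2.4.6 and matplotlib 3.10.9 served for tables and figures.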

Additional observations from a re-analysis of the deposited data

How the results depend on the processing

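Over 19 alternatives, 8 of 24 receptor results kept their direction and side of the threshold throughout: Ccrl2 for LPS against PBS and against IL-4, Cxcr2 for IL-4 against PBS and LPS against IL-4, Cxcr4 in all 3 comparisons and Cmklr1 for LPS against IL-4, which did not pass. With the methods' t-test and the same adjustment, 2 receptors and 5303 genes passed for LPS against PBS and 716 genes for IL-4 against PBS. At the methods' unadjusted threshold (0.0001) this t-test gave 812, 152 and 1291 genes for LPS against PBS, IL-4 against PBS and LPS against IL-4. The study reports more genes at that threshold for LPS and for IL-4, so its counts were not reproduced, and the reason was not tested. For IL-4 against PBS, array weights, which gave replicate 3 of LPS and of PBS weights of 0.195 and 0.2, called 6 receptors and 8295 genes, against 1146 in the fit as reported, and the 7 arrays without those replicates, a setting added after the data were seen, called 5 receptors and 6389 genes. Leaving out 1 array at a time gave 4 to 7 receptors and 6734 to 8815 genes for LPS against PBS, 3 to 4 and 466 to 2033 for IL-4 against PBS, and 3 to 5 and 7605 to 10964 for LPS against IL-4. With the replicate block 6, 3 and 4 receptors and 8988, 1377 and 11264 genes were called, and the block changed no receptor call. Subtracting array medians moved the median of all rows to 0.12 for LPS against PBS and 0.18 for LPS against IL-4, and the share of calls that were higher to 63.9% and 72.1%, against 40.8% and 44.8% as reported; for IL-4 against PBS the share was 50.3% against 62%. Signs turned only for Ccr3 and Ccr7 differences that did not pass: Ccr3 for LPS against PBS with quantile normalization (−0.0031), for IL-4 against PBS with array weights (−5e-04), with medians subtracted (−0.0095) and when single arrays were left out (−0.0382 to 0.1006), and for LPS against IL-4 with quantile normalization (−0.0873) and when single arrays were left out (−0.0198 to 0.119), and Ccr7 for IL-4 against PBS when single arrays were left out (−0.3986 to 0.5026). It was positive without IL-4 replicate 1 (0.244) or PBS replicate 2 (0.5026). The cause was not tested. Leaving out the 7071 dimmest rows drops Ccr2, Ccr3 and Cxcr2, which then have no value.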

Other observations

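Of 20 listed genes that carry or end the signal of these receptors 19 were measured. With LPS 4 rose, 7 fell and 8 did not pass, where 37.8% of all rows passed, and with IL-4 none rose, 2 fell and 17 did not pass, where 5.4% of all rows passed (limma, adjusted p under 0.05). Arrb1, the arrestin that uncouples receptors from G proteins, stood at an average of 8.32 with LPS and 9.86 with PBS (−1.54 ± 0.10 SE, n = 3 each, adjusted p = 6.82e-06), and the phospholipase Plcb2 fell by 1.50 (adjusted p = 0.00513). Pik3r5, a regulatory subunit of PI3K gamma, rose by 1.45 with LPS (adjusted p = 0.00438). The G protein subunit Gng2 fell by 0.83 with LPS (adjusted p = 0.00593) and by 0.98 with IL-4 (adjusted p = 0.0177), and Grk3, a receptor kinase, fell by 0.44 with IL-4 (adjusted p = 0.0445). Gnb1 and Rac2 did not pass and differed by 0.003 and 0.016 with LPS. Between the stimuli, LPS against IL-4, 5 of the 19 were higher and 5 lower, where 46.9% of all rows passed.

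Of 12 eosinophil and mast cell markers, which bear on Ccr3, all were measured. With LPS, where 37.8% of all rows passed, the histamine-forming enzyme Hdc rose (2.36, adjusted p = 2.42e-06) and Kit fell (−0.32, adjusted p = 0.045). With IL-4 none passed, where 5.4% of all rows did. Their mean level lay between 5.22 and 5.34 with LPS, 4.97 and 5.03 with IL-4 and 5.05 and 5.05 with PBS.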
